A study of Mus musculus with 2 samples.

Results

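The 10 genes described here are markers of basophils, mast cells and eosinophils, measured in RNA of mouse hematopoietic stem cells (HSC). They encode granule proteins (Prg2, Epx, Mcpt8, Prss34, Cpa3 and Gzmb), receptors (Fcer1a, Ms4a2 and Il5ra) and the enzyme that makes histamine (Hdc). They were chosen by symbol from a marker list that was put together with their levels in these same libraries known, so their levels and their differences between libraries are given as a description, without a test. All 10 are listed in both tables, among 21474 protein-coding genes, and their positions are given on GRCm38. The cells were isolated from bone marrow of adult male mice of strain C57BL/6J, aged 5 to 6 weeks, and the labels name no treatment and no altered allele. There was 1 group with 2 biological replicates, each made from 100 ng of total RNA after removal of ribosomal RNA. The labels do not say whether cells of several animals were pooled, and the sorting gate is not described in the labels. Both libraries carry the same donor code, so separate animals cannot be assumed.

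Basophils, mast cells and eosinophils arise in the bone marrow from myeloid progenitors, and each fills its granules with its own set of proteins. Mast cells and basophils carry the high-affinity IgE receptor, which triggers the release of histamine and proteases when antigen binds its IgE. Eosinophils store major basic protein and a peroxidase, and depend on interleukin-5. Granule genes of this kind begin to be transcribed in progenitors before the mature cells form.

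Replicate 1 held 27901074 counts and replicate 2 held 48490188. Levels are in TPM, which corrects counts for effective transcript length and scales each library to the same sum. Protein-coding genes took 16.3% of TPM in replicate 1 and 20.3% in replicate 2. The median log2 ratio of replicate 1 over replicate 2 across protein-coding genes with a mean of at least 1 TPM was -0.29. The implied mean fragment length was 193 nucleotides in replicate 1 and 245 in replicate 2. Of 12 genes listed as HSC markers, 11 reached 1 TPM in both libraries, beside 44.0% of all protein-coding genes. Cd34 (145 and 166 TPM) and Flt3 (57.9 and 53.2 TPM) were the highest, and Slamf1 was the lowest with 0.42 and 0.43 TPM. Whether this list tells HSC from other progenitors was not tested. Markers of lymphocytes were mostly low but not all absent. Cd8a, Trac and Pax5 had no counts, and none of 10 natural killer and T cell markers was at or above 1 TPM in both. Klrb1c had 0.91 and 0.99 TPM from 148 and 173 counts, Gzma 0.91 and 0.92 TPM and Ncr1 0.56 and 0.91 TPM. These 3 lay above the median of protein-coding genes, 0.51 and 0.53 TPM, whereas Prf1 had 0.01 TPM in each library. Klrd1, a lectin-like receptor of natural killer cells, had 0.40 and 1.94 TPM. Of 6 B cell markers, Cd79b alone passed that level in both, with 4.89 and 3.25 TPM.

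Among the 10 genes, 7 were at or above 1 TPM in each library, against 44.0% of all protein-coding genes. Their median level was 3.68 TPM in replicate 1 and 1.96 TPM in replicate 2, beside 0.51 and 0.53 TPM over all protein-coding genes. Prg2 stood far above the other 9, with 50.6% of their summed TPM in replicate 1 and 49.2% in replicate 2. Fcer1a reached 1 TPM in replicate 1 alone, and Gzmb and Il5ra stayed below it in both libraries. Ordered by mean TPM the genes ran Prg2, Mcpt8, Cpa3, Prss34, Epx, Hdc, Ms4a2, Fcer1a, Gzmb and Il5ra. Of the 9 neighbours in this order, 3 kept their order in both libraries with deposited intervals that did not overlap: Prg2 over Mcpt8, Ms4a2 over Fcer1a, and Fcer1a over Gzmb. Mcpt8 exceeded Cpa3 in replicate 1 and lay below it in replicate 2, and Epx changed place with both Prss34 and Hdc. The place of Epx depends on the transcript its counts were given to: on its full-length transcript, at 1.90 and 0.51 TPM, it lay below both genes in each library. In bulk RNA, fewer cells of a type and less RNA per cell cannot be told apart.

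**Figure D1:**
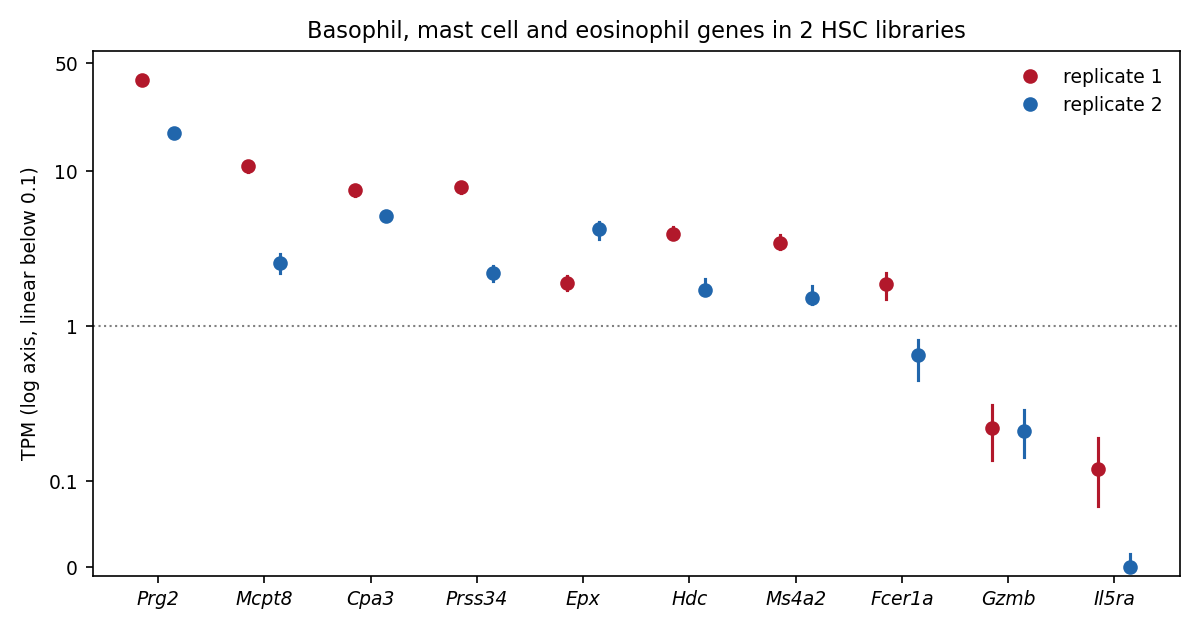
TPM of each gene (vertical axis, logarithmic above 0.1 and linear below) in replicate 1 (red, left) and replicate 2 (blue, right), with genes ordered by mean TPM; vertical lines are the deposited intervals and the dotted line is 1 TPM. Prg2 is highest at 38.7 and 17.7 TPM, Epx alone lies higher in replicate 2, and Il5ra is listed at 0 in replicate 2.

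The highest level of the set was that of Prg2, an eosinophil granule gene. Prg2, which encodes eosinophil major basic protein, a cationic toxin of the granule core (chromosome 2, 84980461 to 84983632), had 38.7 TPM from 2157 counts in replicate 1 and 17.7 TPM from 1362 counts in replicate 2, a mean of 28.2 ± 14.8 TPM (SD, n = 2). It lay above 97.5% of protein-coding genes in replicate 1 and above 90.7% in replicate 2. The deposited intervals, 36.4 to 39.6 and 16.6 to 18.5 TPM, did not overlap, and the ratio was 2.19-fold. Its paralog Prg3, whose start lies 7.75 kb away, had 1.36 and 0.62 TPM. The pair thus differed widely in level and both members were higher in replicate 1.

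Epx encodes eosinophil peroxidase, a heme enzyme of the same granules (chromosome 11, 87864000 to 87875536). It had 1.90 TPM in replicate 1 and 4.21 TPM in replicate 2, the only one of the 10 genes with the higher TPM in replicate 2. Its counts ran the other way, with 410 in replicate 1 and 360 in the deeper replicate 2, or 14.7 and 7.42 CPM, the counts scaled to library size. The transcript tables show where the scales part. In replicate 1 all 410 counts were placed on the full-length transcript of 2689 nucleotides and 13 exons. In replicate 2 that transcript received 161 counts and 0.51 TPM, while a processed transcript of 658 nucleotides received 199 counts and took 87.9% of the gene's TPM. This short transcript has 4 exons, of which the last 3 lie inside exons 7, 8 and 9 of the full-length one, and its first exon of 48 nucleotides lies in an intron. Its length is 24.5% of that of the full transcript, and it held 55.3% of the gene's counts in replicate 2. The effective length of the gene was 2497 nucleotides in replicate 1 and 659 in replicate 2. On the full-length transcript alone, Epx was 3.73-fold higher in replicate 1, from 1.90 against 0.51 TPM. With the effective length of replicate 1 used for both libraries, the log2 ratio was 0.72 in place of -1.11. Mpo, the neutrophil peroxidase gene whose start lies 70.4 kb from that of Epx, had 92.2 and 58.9 TPM. Lpo, the lactoperoxidase gene between them, had no counts.

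**Figure D2:**
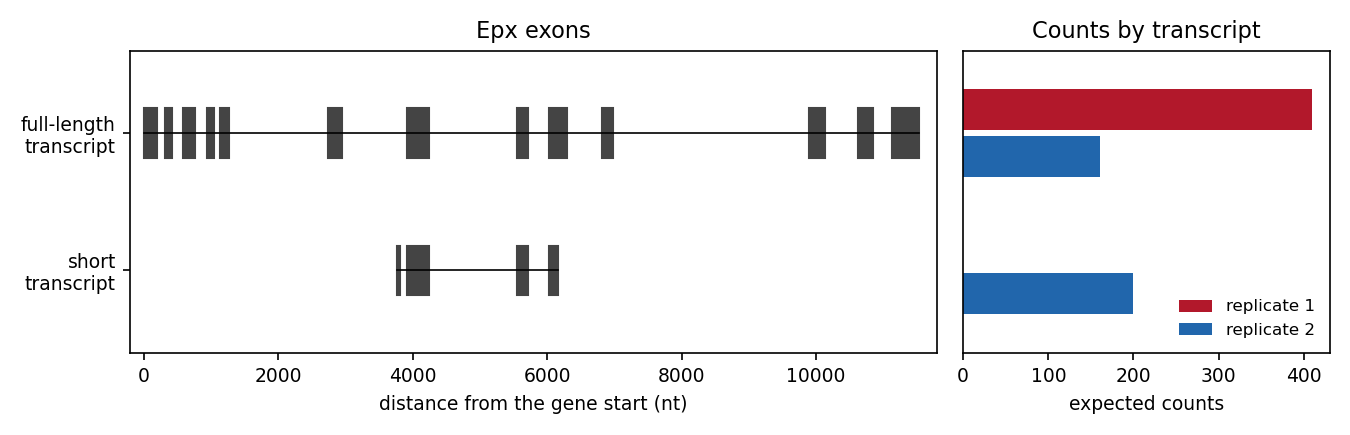
Left, exons (boxes) of the full-length and the short Epx transcript by distance from the gene start in nucleotides; right, expected counts placed on each transcript in replicate 1 (red, upper bar) and replicate 2 (blue, lower bar). All 410 counts of replicate 1 lie on the full-length transcript, whereas replicate 2 has 161 on it and 199 on the short one.

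Among the proteases, the basophil genes Mcpt8 and Prss34 differed most between the libraries. Mcpt8, a serine protease made by mouse basophils (chromosome 14, 56082166 to 56085273), had 10.9 TPM from 623 counts in replicate 1 and 2.56 TPM from 203 counts in replicate 2, 4.25-fold apart. Prss34, another serine protease of basophils and mast cells (chromosome 17, 25298394 to 25300165), had 7.90 TPM from 699 counts in replicate 1 and 2.21 TPM from 279 counts in replicate 2, 3.57-fold apart. For both genes the intervals of the libraries were well separated. Cpa3, a carboxypeptidase stored by mast cells and basophils (chromosome 3, 20215620 to 20242181), was closer, with 7.53 and 5.18 TPM from 817 and 810 counts. Its intervals of 6.97 to 8.21 and 4.83 to 5.57 TPM did not overlap, but the ratio of 1.45 stayed under 2-fold. Gzmb, the granzyme of cytotoxic lymphocytes that mast cells can also make (chromosome 14, 56258838 to 56262260), was low and alike in the libraries, with 0.22 TPM from 23 counts and 0.21 TPM from 32 counts. Gzma, the other main cytotoxic granzyme gene, had 0.91 and 0.92 TPM, and the perforin gene Prf1 had 0.01 TPM in each library.

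Mcpt8 and Gzmb lie in one cluster of granule protease genes, and Prss34 lies in another, beside the mast cell tryptases. All 9 protein-coding genes that start within 100 kb of Mcpt8 belong to its family, and 8 of them were listed at 0 TPM in both libraries. These 8 included Mcpt1, Mcpt2, Mcpt4 and Mcpt9, the chymase-type proteases of mature mast cells, and the granzyme genes Gzmd, Gzme, Gzmg and Gzmn. The exception was Ctsg, the gene of cathepsin G of neutrophil and mast cell granules, 17.7 kb away, at 35.5 and 28.7 TPM. The 3 neighbours of Gzmb were likewise at 0 TPM, apart from Gzmc with 6 counts in replicate 1. Around Prss34, the 5 genes of its family, Prss28, Prss29, Tpsab1, Tpsb2 and Tpsg1, were all at 0 TPM. Tpsab1 and Tpsb2 encode mast cell tryptases, and whether mature mast cells of this strain transcribe both genes was not tested. Of the mast cell protease genes in these clusters only the basophil-associated Mcpt8 and Prss34 thus carried more than 1 TPM, together with Ctsg.

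**Figure D3:**
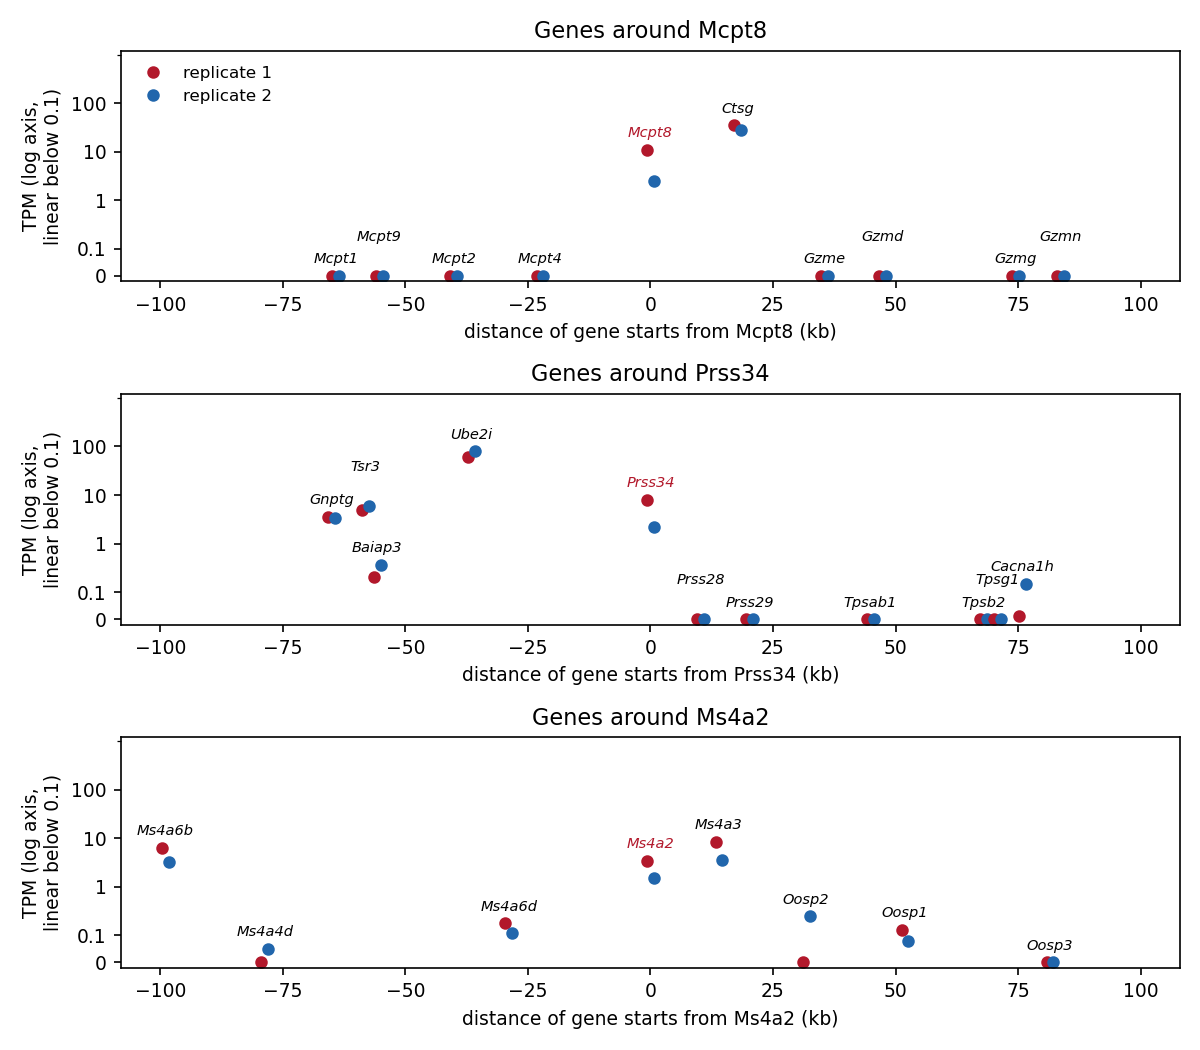
TPM (vertical axis, logarithmic above 0.1 and linear below) of the protein-coding genes that start within 100 kb of Mcpt8, Prss34 and Ms4a2, by distance between gene starts in kilobases, in replicate 1 (red) and replicate 2 (blue). Mcpt8 and Ctsg stand alone among genes listed at 0, the 5 family genes to the right of Prss34 are all at 0, and Ms4a3 next to Ms4a2 reaches 8.50 and 3.60 TPM.

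Both specific chains of the IgE receptor were expressed at low levels, the signalling chain above the binding chain. Ms4a2, the signal-amplifying beta chain (chromosome 19, 11615523 to 11623719), had 3.44 TPM from 467 counts in replicate 1 and 1.53 TPM from 293 counts in replicate 2, 2.25-fold apart. Fcer1a, the alpha chain that binds IgE (chromosome 1, 173221284 to 173227214), had 1.87 TPM from 119 counts in replicate 1 and 0.65 TPM from 49 counts in replicate 2, 2.88-fold apart. The gamma chain gene Fcer1g, which other Fc receptors share, was higher at 12.4 and 9.11 TPM. Ms4a2 counts fell on the same pair of its 5 transcripts in both libraries, with 54.6% and 51.4% of its TPM on the longer one. For Fcer1a the 998-nucleotide transcript took 60.2% of TPM in replicate 1 and 0% in replicate 2. That split is loose, since the posterior SD of the transcript counts was 14.95 in replicate 1 and 10.94 in replicate 2. Ms4a3, a gene of granulocyte progenitors that starts 13.97 kb from Ms4a2, was also higher in replicate 1, at 8.50 against 3.60 TPM. All 6 protein-coding neighbours of Fcer1a, of which 5 are olfactory receptor genes, were at 0 TPM.

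Il5ra, the interleukin-5 receptor alpha chain that marks eosinophil and B-1 cell lineages (chromosome 6, 106710357 to 106749037), was at the limit of detection. It had 16 counts and 0.12 TPM in replicate 1, with a deposited interval of 0.0713 to 0.191 TPM, and no count in replicate 2. A count of 0 in replicate 2 allows up to 3 counts, or 0.0158 TPM, so the gene was at least 7.58-fold higher in replicate 1 when its 0.12 TPM is taken as measured. This bound covers the counting error of replicate 2 and not that of replicate 1. The chain that Il5ra shares with other receptors, encoded by Csf2rb, had 2.98 and 1.47 TPM.

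Hdc, histidine decarboxylase, the enzyme that makes histamine (chromosome 2, 126593667 to 126619299), had 3.91 TPM from 792 counts in replicate 1 and 1.70 TPM from 559 counts in replicate 2, 2.30-fold apart. The intervals of 3.69 to 4.38 and 1.61 to 2.01 TPM did not overlap. Counts fell on the coding transcript and on one annotated with a retained intron. The retained-intron transcript held 12.6% of the gene's counts in replicate 1 and 30.6% in replicate 2. It had 0.27 and 0.31 TPM, while the coding transcript had 3.64 and 1.39 TPM. The difference between libraries in Hdc thus lay on the coding transcript.

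Promoter windows from RefSeq on GRCm38.p6 were found for 9 of the 10 genes. Each runs from 250 bases before to 50 bases after the start it is set on. For Mcpt8, Gzmb, Fcer1a and Hdc that start differs from the gene start given by the positions above. The letters GATAA, the core bound by GATA factors that act in mast cell and basophil development, were searched on both strands. They occurred in 5 of these 9 windows and in 25.4% of all 32851 windows of the table. The letters TATAA, also searched on both strands and without overlap with the GATAA matches, occurred in 3 of 9 and in 24.9% of all windows. The windows of the 4 genes that hold GATAA and average at least 1 TPM are shown, on the strand of the gene, with GATAA or its reverse complement in capitals. A match is a run of letters and not a measured site.
Cpa3, chr3:20242132-20242431, minus strand: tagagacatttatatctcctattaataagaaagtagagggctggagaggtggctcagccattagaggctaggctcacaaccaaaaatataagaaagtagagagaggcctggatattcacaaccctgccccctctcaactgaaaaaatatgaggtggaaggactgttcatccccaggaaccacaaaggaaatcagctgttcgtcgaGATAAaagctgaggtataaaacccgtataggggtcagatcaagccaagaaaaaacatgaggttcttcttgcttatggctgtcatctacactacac
Prss34, chr17:25298144-25298443, plus strand: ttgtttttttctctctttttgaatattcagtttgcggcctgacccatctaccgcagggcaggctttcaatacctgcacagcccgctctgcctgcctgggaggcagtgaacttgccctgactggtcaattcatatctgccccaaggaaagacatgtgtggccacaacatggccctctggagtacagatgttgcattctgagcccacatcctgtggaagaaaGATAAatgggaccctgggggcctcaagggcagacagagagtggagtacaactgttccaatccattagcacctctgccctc
Ms4a2, chr19:11623670-11623969, minus strand: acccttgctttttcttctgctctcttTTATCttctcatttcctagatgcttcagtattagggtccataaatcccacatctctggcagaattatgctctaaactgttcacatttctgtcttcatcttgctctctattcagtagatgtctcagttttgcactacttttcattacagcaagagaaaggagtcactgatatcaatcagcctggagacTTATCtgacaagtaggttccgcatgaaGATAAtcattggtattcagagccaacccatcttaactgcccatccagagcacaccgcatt
Fcer1a, chr1:173227180-173227479, minus strand: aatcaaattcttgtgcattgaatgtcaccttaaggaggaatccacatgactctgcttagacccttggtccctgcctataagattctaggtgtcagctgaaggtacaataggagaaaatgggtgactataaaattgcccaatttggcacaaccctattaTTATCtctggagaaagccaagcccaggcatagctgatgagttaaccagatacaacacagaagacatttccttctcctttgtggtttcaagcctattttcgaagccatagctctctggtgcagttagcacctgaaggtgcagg
Distances are counted from the start each window is set on. The match nearest to that start begins 45 bases before it in Cpa3, 30 in Prss34, 10 in Ms4a2 and 92 in Fcer1a. Ms4a2 holds 3 matches, and the others hold 1 each. In Cpa3 a TATAA run begins 31 bases before the start. The fifth gene with a match was Il5ra. Its window is set on the gene start, while the first exon of its 1 quantified transcript begins 3928 bases downstream. Mcpt8, Epx, Gzmb and Hdc held no GATAA in this window.

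Most of the genes were higher in replicate 1. A gene was called apart where its mean reached 1 TPM, its ratio with 0.1 TPM added to each value was over 2-fold and the deposited intervals did not overlap. The folds printed for single genes are ratios of TPM with nothing added. Of the 8 genes with that mean, 7 were apart, against 8.61% of 9900 protein-coding genes. Higher in replicate 1 were 6 of them (Prg2, Mcpt8, Prss34, Hdc, Ms4a2 and Fcer1a), against 2.07% of these genes, and Epx was higher in replicate 2, against 6.54%. These shares are given as background only, since the genes were listed with their values in view. The median log2 ratio of the 10 genes was 1.13, against -0.29 over the protein-coding genes. In CPM, without division by length, all 10 genes including Epx were higher in replicate 1, with a median log2 ratio of 1.46 against -0.05. With 1 library on each side of the ratio no test between the libraries can be made.

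**Figure D4:**
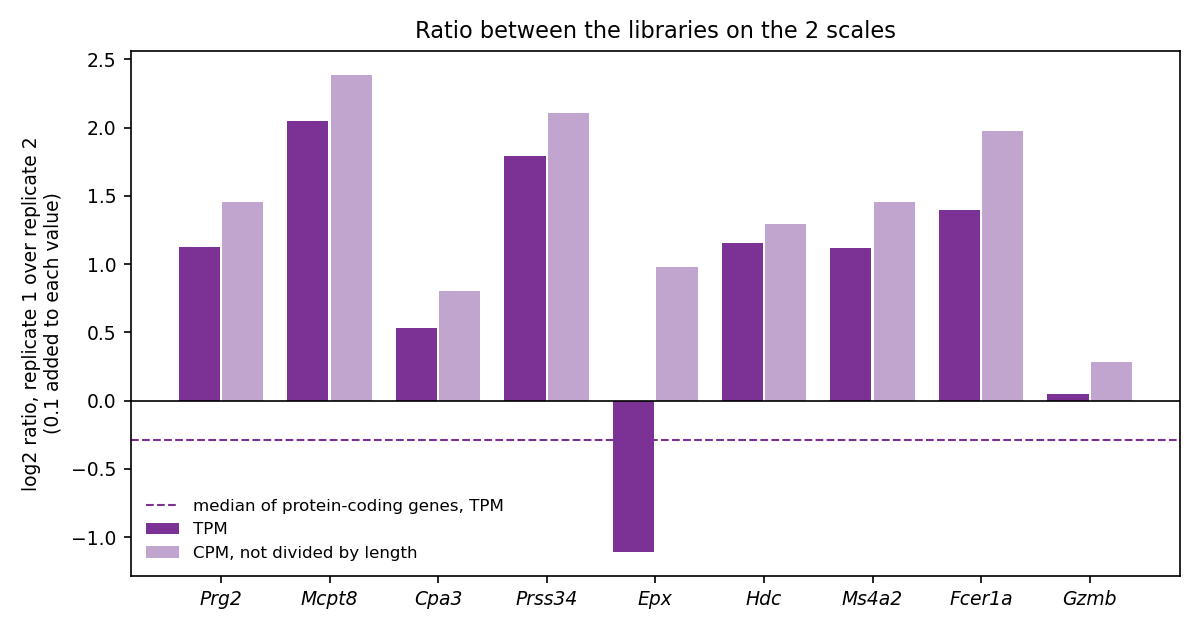
Log2 ratio of replicate 1 over replicate 2 for the 9 genes with counts in both libraries, from TPM (dark bars, left) and from CPM without division by length (pale bars, right), with 0.1 added to each value; the dashed line is the median of protein-coding genes in TPM, -0.29. Epx is the only gene whose bars point in opposite directions, at -1.11 in TPM and 0.98 in CPM.

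Markers of other myeloid cells moved with this difference. All 10 late neutrophil genes were higher in replicate 1 in TPM, with a summed level of 3069 TPM in replicate 1 and 1152 TPM in replicate 2, and 5 were called apart. The calcium-binding protein gene S100a9 had 952 and 218 TPM. All 8 monocyte and macrophage markers were higher in replicate 1, summing to 42.5 and 20.0 TPM, with 4 of 6 tested called apart. Of 10 primary granule genes, 7 were higher in replicate 1 and 3 were called apart: Prtn3 (22.9 and 5.24 TPM), Elane (25.8 and 9.29 TPM) and Ms4a3. Their sum, dominated by the chaperone gene Calr, was 512 TPM in replicate 1 and 592 TPM in replicate 2. Erythroid markers went the other way, with 7 of 8 higher in replicate 2 and sums of 101 and 222 TPM. Of the 7 tested, 4 were called apart, all higher in replicate 2. Of the protein-coding genes with a mean of at least 1 TPM, 2.07% were called higher in replicate 1 and 6.54% higher in replicate 2. No marker of the neutrophil, monocyte and primary granule lists was at 0 in either library. Of the 2 lymphocyte markers with a mean of 1 TPM or more, Klrd1 was called apart, higher in replicate 2, and Cd79b was not. HSC markers did not move in this way: they summed to 387 and 421 TPM and none was called apart. The part of these other cells in the difference was not tested.

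**Figure D5:**
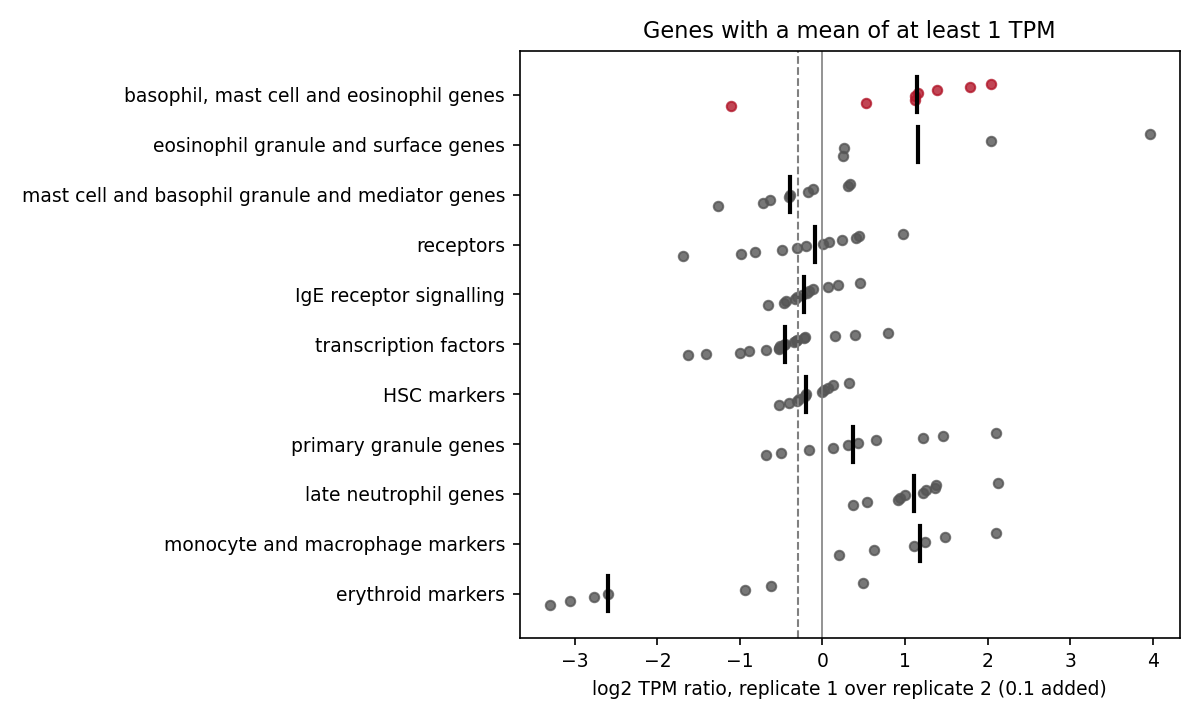
Log2 TPM ratio of replicate 1 over replicate 2 (horizontal axis) for genes with a mean of at least 1 TPM, each point a gene and each thick line the median of its list; the dashed line is the median of all protein-coding genes, -0.29. The basophil, mast cell and eosinophil genes have a median of 1.14 here, near the 1.11 of late neutrophil genes and the 1.18 of monocyte markers, while erythroid markers lie at -2.60.

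Other genes of the same cells, 82 in 6 lists by role, were examined beside the 10. Of these, 51 passed 1 TPM in each library, beside 44.0% of all protein-coding genes. The lists differed: 12 of 12 IgE receptor signalling genes passed, 17 of 18 transcription factors and 11 of 17 receptors. Only 7 of 19 mast cell and basophil granule and mediator genes passed, 2 of 8 eosinophil genes and 2 of 8 cytokine and chemokine genes. Of 8 eosinophil genes, 7 were higher in replicate 1 and Ear10 was listed at 0. The ribonuclease genes led this list, with 7.78 and 6.46 TPM for Ear2, 4.27 and 0.18 TPM for Ear1, and 3.24 and 0.71 TPM for Ear6. Of the 4 with a mean of at least 1 TPM, Ear1 and Ear6 were the 2 called apart. Both were higher in replicate 1, a call made for 2.07% of protein-coding genes with that mean. The Ear genes are close paralogs, and the deposited posterior SD of the count was at most 0.37 for these 3. The eosinophil lectin gene Siglecf had 1.27 and 1.05 TPM. The eotaxin receptor gene Ccr3 had 0.29 and 0.07 TPM.

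Of 19 mast cell and basophil granule and mediator genes, 7 were detected at 1 TPM or more in each library. In TPM 4 of the 19 were higher in replicate 1 and 7 were lower, while in CPM 8 were higher and 3 lower. The median log2 ratio of those with a mean of at least 1 TPM was -0.39, beside -0.29 over protein-coding genes. A further 8 had no counts, all of them proteases (Mcpt1, Mcpt2, Mcpt4, Mcpt9, Cma2, Tpsb2, Tpsab1 and Tpsg1). The highest were the granule proteoglycan gene Srgn at 223 and 367 TPM, the leukotriene pathway gene Alox5ap at 40.4 and 53.1 TPM, and Ctsg. Slc18a2, which loads histamine and other amines into granules, had 5.12 and 5.57 TPM. The leukotriene C4 synthase gene Ltc4s was the 1 of 9 genes with a mean of 1 TPM or more that was called apart, against 8.61% of protein-coding genes, at 0.68 and 1.78 TPM.

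Of 17 receptor genes, 11 reached 1 TPM in both libraries, led by the activation antigen gene Cd69 (40.2 and 79.8 TPM), Kit (36.4 and 45.1 TPM), the receptor for stem cell factor on HSC and mast cells, and the granule membrane gene Cd63 (17.95 and 13.6 TPM). Cd200r3, a receptor of basophils and mast cells, had 84 counts and 1.00 TPM in replicate 1 and 2 counts and 0.02 TPM in replicate 2. Of 12 receptors with a mean of at least 1 TPM, 1 was called apart, a share near the 8.61% of protein-coding genes. This was the interleukin-33 receptor gene Il1rl1, higher in replicate 2 at 1.04 and 3.58 TPM. The mast cell receptor genes Mrgprb1 and Mrgprb2 were at 0.

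RNA of genes that act downstream of the IgE receptor was found in both libraries, which does not show that the pathway itself was in place. All 12 signalling genes reached 1 TPM in both libraries, beside 44.0% of all protein-coding genes. None was called apart, beside 8.61% of those with a mean of at least 1 TPM. Vav1 (38.4 and 60.6 TPM), Plcg2 (22.2 and 24.8 TPM) and Inpp5d (21.4 and 23.2 TPM) were highest. Syk, the kinase recruited by the receptor, had 17.1 and 20.4 TPM, and Lyn, which starts the cascade, had 14.3 and 10.4 TPM.

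Of 18 transcription factors and regulators of these lineages, 17 reached 1 TPM in both libraries, led by Ikzf1 (16.2 and 22.5 TPM), Xbp1 (16.2 and 20.2 TPM) and Stat5b (9.33 and 13.5 TPM). Of the 18, 2 were called apart, a share near the 8.61% of protein-coding genes. Both were higher in replicate 2: Gata1 at 1.40 and 3.90 TPM, and its cofactor gene Zfpm1 at 3.51 and 11.1 TPM. Gata2, needed for mast cells and basophils and for HSC, had 3.98 and 5.47 TPM. Cebpa had 1.53 and 1.78 TPM, Cebpe 4.12 and 2.34 TPM and Mitf, the mast cell master regulator, 1.29 and 1.66 TPM. The deposited interval of Mitf in replicate 1 was wide, from 1.20 to 32.9 TPM, so its level there is poorly fixed.

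The protein-coding genes closest to Prg2 over both libraries, by distance on the log2 scale of TPM with 0.1 added, were Lcn2 (44.7 and 18.7 TPM, distance 0.22), Grk2 (35.1 and 20.9 TPM), Rpl22l1 (32.6 and 19.5 TPM), Pnisr (33.3 and 20.2 TPM) and Hist1h3i (31.6 and 20.1 TPM). Lcn2 encodes a secondary granule protein of neutrophils. With 2 libraries this likeness describes level and direction only.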

How the data were processed

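Total RNA of 2 HSC libraries was measured, and each had a gene and a transcript table. Both tables hold the authors' expected counts, TPM and FPKM, per the file headers. They also hold posterior means, the posterior SD of each count and lower and upper bounds of TPM, each treated as a deposited score. For transcripts, the deposited isoform percent gives the share of the gene's TPM. TPM sums to 1000000 over all features of a library. The sample text files name mm10 and GENCODE M4, while the alignment and counting software, not given in the sources used here, and the use of strand stay unknown. The labels give fragment size ranges of 172 to 1452 for replicate 1 and 232 to 1000 for replicate 2.

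Symbols, classes and positions came from GENCODE M21 (GRCm38), which named 42462 of 43346 genes once version suffixes were dropped. No annotated gene overlapped a described gene apart from the microRNA genes Mir6949 and Mir7007, both without counts. The posterior SD of the gene count was 0 for all 10 genes in both libraries. The members and the gene lists were chosen with earlier results of these data known. Lists were the 6 roles named in the report, HSC, primary granule, late neutrophil, monocyte, erythroid, natural killer and T cell, and B cell markers. Named genes were the 10, the 3 highest of each list, those called apart or at 0, family neighbours within 100 kb and the 5 genes nearest Prg2, as far as length allowed. Other genes named for their role, such as Cd200r3, Siglecf, Ccr3, Slc18a2, Gata2, Mitf, Syk, Lyn, Gzma and Prf1, and the promoter letters, were chosen after values and sequences were seen.

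Ratios are replicate 1 over replicate 2 with a pseudocount of 0.1 TPM. There was 1 group, so no test was made. A count of 0 was read as up to 3 counts, 0.108 CPM in replicate 1 and 0.0619 in replicate 2. Both replicates carry the same donor code and the labels do not name separate animals, so the SD may be technical in part. The call rule was checked on simulated data. Alternatives used edgeR 4.0.16 TMM scaling and DESeq2 1.42.0 size factors of rounded counts, with Python 3.11.15.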

Additional observations from a re-analysis of the deposited data

How the results depend on the processing

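Of 110 values of single genes under 11 alternatives, 66 stayed within the range spanned by the deposited intervals, 40 moved out of it without changing direction and 4 changed direction, all of them of Epx. Its log2 ratio of -1.11 was 0.98 in CPM, 0.98 with TMM scaling, 0.98 with DESeq2 size factors and 0.72 with the effective length of replicate 1 in both libraries, the last chosen after seeing the data. The median log2 ratio of the 10 genes, 1.13, was 1.49 on TPM over protein-coding genes, 1.46 in CPM, 1.46 with TMM scaling, 1.46 with DESeq2 size factors, 1.42 when centred on the median of protein-coding genes and, chosen after seeing the data, 1.41 when centred within length deciles. It stayed within the interval range for other pseudocounts, posterior means, FPKM, and without Mcpt8 or Epx. The number of genes at the detection level, 7, was 4 at a minimum of 2 TPM. It was 9 on TPM over protein-coding genes and 9 with at least 10 expected counts. The number apart, 7, was 2 at 3-fold (Mcpt8 and Prss34). It was 6, without Epx, on TPM over protein-coding genes, when centred on their median, and with the effective length of replicate 1. The log2 ratio of Epx was -0.83, -0.82 and 0.72 in these settings, so its call as higher in replicate 2 was lost in each. The ordered neighbours, 3, were 5 to 6 with 1 library alone. The causes of the other shifts were not tested. Fcer1a, Gzmb and Il5ra rest on at most 119 counts a library, which limits their ratios. No paired analysis was possible because there was 1 group.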

Other observations

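Interleukin genes that basophils and mast cells transcribe on activation stayed below 1 TPM in both libraries, whereas a pair of chemokine genes did not. Il3, Il5 and Il13 had no counts in either library. Il4 had 2 counts in replicate 1 and 28 in replicate 2, or 0.06 and 0.60 TPM, and Il6 had 0 and 41 counts. The chemokine genes Ccl3 (72.1 and 68.1 TPM) and Ccl4 (34.9 and 32.7 TPM), which draw in monocytes and lymphocytes, were the 2 of this list of 8 at 1 TPM or more in both libraries, and neither was called apart.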
